A study of Mus musculus with 4 samples.

Results

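KDM5C, also called SMCX, was mapped in mouse cells by ChIP-Seq, and the regions described here are its peaks in intergenic sequence far from any annotated gene start. They were taken from the peak list of cells with intact Kdm5c (WT). A peak was counted as distal intergenic when its midpoint lay more than 5 kb from every transcription start site (TSS) in the GENCODE M1 annotation and inside no annotated gene, on chromosomes 1 to 19 or X of the mm9 assembly. This held for 609 of 6916 WT peaks on these chromosomes (8.81%, 95% interval 8.15 to 9.5%). The other WT peaks were 5894 within 5 kb of a TSS and 413 farther away but inside a gene. The cells were epiblast-like cells (EpiLCs) at day 2, given as strain C57BL/6J, grown from male embryonic stem cells. The study's methods name other backgrounds for the mouse strains that carried these mutations, and the strain was not settled. All samples, the WT ones included, carried a truncation of Tsix on the only X chromosome (XΔTsixY). The knockout (KO) cells also lacked the Kdm5c exons that encode the demethylase domain, an allele that the study describes as leaving a trace of mutant protein. Each genotype had 1 deposited sample pulled down with an in-house rabbit antibody to KDM5C and 1 input sample, 4 samples in all, and 1 deposited peak list. The study's methods describe replicates pooled for the WT list and 1 pulled-down KO sample, so the lists were not balanced. The sources do not settle whether day 2 was counted up to or from the EpiLC stage.

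KDM5C is a histone demethylase that acts on the di- and trimethylated forms of lysine 4 on histone H3 and leaves the monomethylated form. The trimethylated form of this lysine marks active promoters and CpG islands, which are stretches rich in the dinucleotide CpG, whereas the monomethylated form marks enhancers, many of which lie far from genes. Sequence between genes is mostly poor in CpG, because methylated CpG is lost by mutation.

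No replicate list was available for either genotype, so no test was made, and the values below are counts, medians and shares. Intervals on shares are exact Clopper-Pearson 95% intervals and those on medians are 95% order-statistic intervals. Both cover counting error over peaks only. The lists hold no read counts. The study states a minimum of reads per sample and not the depth behind each list.

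The sequences below show the range of DNA under the distal intergenic peaks. Each is 300 bp of mm9 centred on the summit, the base of highest signal, on the plus strand, with every CpG in capitals. The first 3 come from members of very high score and lie in CpG-dense DNA with 24 to 35 CpG each.
Peak 18480 bp from Scarf2, chr16:17815693-17815992: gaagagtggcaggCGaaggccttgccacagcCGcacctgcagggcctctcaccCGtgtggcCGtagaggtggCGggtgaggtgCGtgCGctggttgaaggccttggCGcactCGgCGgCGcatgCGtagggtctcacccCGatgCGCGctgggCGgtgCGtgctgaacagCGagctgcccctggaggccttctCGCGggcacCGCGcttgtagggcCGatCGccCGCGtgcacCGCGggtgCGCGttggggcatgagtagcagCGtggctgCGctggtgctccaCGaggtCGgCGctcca
Peak 9426 bp from Tbr1, chr2:61653742-61654041: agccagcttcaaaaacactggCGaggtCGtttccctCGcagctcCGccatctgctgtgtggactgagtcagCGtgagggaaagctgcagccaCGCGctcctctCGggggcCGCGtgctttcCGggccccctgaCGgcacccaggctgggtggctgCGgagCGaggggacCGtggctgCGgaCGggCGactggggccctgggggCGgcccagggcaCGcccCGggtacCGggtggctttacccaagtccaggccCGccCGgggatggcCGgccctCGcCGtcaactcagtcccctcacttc
Peak 27366 bp from Hlf, chr11:90279390-90279689: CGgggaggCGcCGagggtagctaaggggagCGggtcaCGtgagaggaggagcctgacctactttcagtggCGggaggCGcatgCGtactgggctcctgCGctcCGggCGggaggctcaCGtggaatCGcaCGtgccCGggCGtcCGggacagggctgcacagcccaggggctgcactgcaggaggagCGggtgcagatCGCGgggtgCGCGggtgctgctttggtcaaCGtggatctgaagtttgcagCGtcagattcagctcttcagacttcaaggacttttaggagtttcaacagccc

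The next pair were the strongest members outside CpG-rich sequence, which was defined over the whole peak by a ratio of observed to expected CpG of at least 0.6 and a GC content of at least 50%. The peak near Edn2 missed the definition through its CpG ratio over 988 bp (0.498), yet its 300 bp at the summit held 33 CpG at a ratio of 0.938. The peak nearest to Zic4 missed it through its GC content (43.0% over the peak), and held 14 CpG clustered on a background of few.
Peak 12309 bp from Edn2, chr4:119821366-119821665: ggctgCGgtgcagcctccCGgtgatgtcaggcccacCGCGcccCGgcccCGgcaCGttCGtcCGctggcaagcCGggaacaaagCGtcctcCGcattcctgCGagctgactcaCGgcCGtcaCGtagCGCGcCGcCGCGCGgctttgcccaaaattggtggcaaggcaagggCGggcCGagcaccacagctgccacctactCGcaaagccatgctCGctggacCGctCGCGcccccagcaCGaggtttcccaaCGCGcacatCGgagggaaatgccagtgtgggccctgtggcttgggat
Peak 182182 bp from Zic4, chr9:91459252-91459551: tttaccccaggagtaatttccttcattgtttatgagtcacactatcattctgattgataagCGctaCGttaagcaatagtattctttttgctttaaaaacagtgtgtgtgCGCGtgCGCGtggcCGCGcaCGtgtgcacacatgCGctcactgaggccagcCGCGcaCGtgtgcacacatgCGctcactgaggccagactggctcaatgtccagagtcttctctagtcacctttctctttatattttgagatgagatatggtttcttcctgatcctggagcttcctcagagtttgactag

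The last pair were the strongest members that a KO peak also overlapped. They held 6 and 2 CpG in 300 bp.
Peak 24912 bp from Ly6c2, chr15:74917047-74917346: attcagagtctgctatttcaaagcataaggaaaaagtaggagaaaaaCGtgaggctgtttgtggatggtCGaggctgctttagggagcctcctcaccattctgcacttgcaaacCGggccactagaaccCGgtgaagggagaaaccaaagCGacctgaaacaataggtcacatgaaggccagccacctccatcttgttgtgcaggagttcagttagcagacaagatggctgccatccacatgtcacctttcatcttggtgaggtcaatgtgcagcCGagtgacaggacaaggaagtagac
Peak 17818 bp from Ptprs, chr17:56633516-56633815: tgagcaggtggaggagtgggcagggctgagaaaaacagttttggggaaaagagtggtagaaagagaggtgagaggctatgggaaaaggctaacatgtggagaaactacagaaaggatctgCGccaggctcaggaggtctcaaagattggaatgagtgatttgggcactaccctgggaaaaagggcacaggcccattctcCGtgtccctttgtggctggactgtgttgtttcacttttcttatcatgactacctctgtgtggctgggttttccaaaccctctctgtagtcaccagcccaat

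The distal intergenic peaks were a mixture of CpG-dense and CpG-poor sites. In CpG-rich sequence lay 264 of 609 (43.3%, 95% interval 39.4 to 47.4%), where all WT peaks gave 81.6%, peaks within 5 kb of a TSS 87.6% and the other peaks inside genes 51.3%. The median ratio of observed to expected CpG was 0.559 (interval 0.523 to 0.591) over distal intergenic peaks, 0.821 over peaks within 5 kb of a TSS and 0.620 over the others inside genes. Their median GC content was 57.6%, against 65.4% and 60.7%. The quartiles of the distal peaks were 0.364 and 0.742, so no single composition described them. Both values were higher at the distal peaks than in intergenic sequence sampled across the genome. Over 300 bp at the summit the distal peaks had a median of 58.0% GC and a CpG ratio of 0.577, and 26926 positions of the same class on a regular grid, placed every 50 kb, had 40.3% and 0.134. The 345 members that were not CpG-rich had a median GC content of 53.3% and a CpG ratio of 0.397 over these 300 bp, which are also above the grid.

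**Figure D1:**
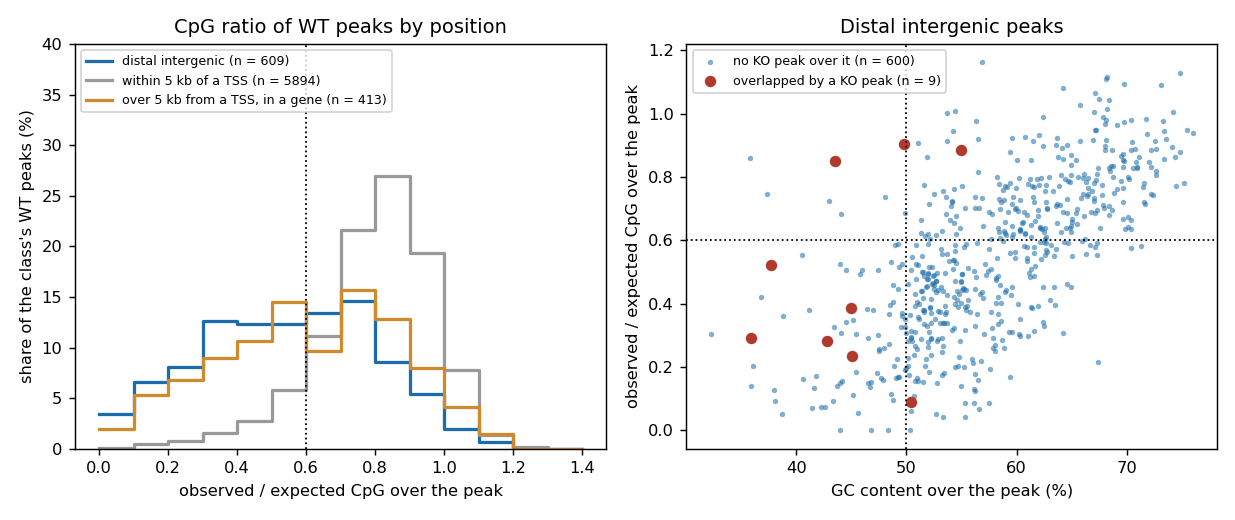
Left, share of WT peaks (%) by ratio of observed to expected CpG over the peak, in bins of 0.1, for the 609 distal intergenic peaks, the 5894 peaks within 5 kb of a TSS and the 413 others inside genes. Right, CpG ratio against GC content (%) of each distal intergenic peak, with the 9 overlapped by a KO peak in red and dotted lines at the limits of CpG-rich sequence. The distal peaks spread across the whole range of ratios, and 1 of the 9 red points lies in the CpG-rich quadrant.

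In strength, the distal intergenic peaks were slightly below the rest of the list, and the CpG-rich ones were not. The score is 10 times the −log10 of the q-value for enrichment over input, and its median was 68 (quartiles 38 and 115) over the distal peaks, 87 over peaks within 5 kb of a TSS and 76 over the others inside genes. The fold enrichment over input was closer between classes, with medians of 3.66 (quartiles 3.06 and 4.45), 3.73 and 3.70. The distal peaks were 452 bp wide in the median (interval 430 to 473 bp), against 534 and 480 bp. Among them 24 were wider than 1 kb (3.94%), where all WT peaks gave 9.09%. The highest 10% of scores in the list held 31 of the 609, or 5.09%, and 27 of these 31 were CpG-rich.

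Split by CpG, distal peaks and peaks within 5 kb of a TSS came closer together in score, and in fold the distal medians were the higher ones. CpG-rich distal peaks had a median score of 95 (interval 79 to 105) and a median fold of 3.93 (3.74 to 4.11), and CpG-rich peaks within 5 kb of a TSS had 90 (87 to 93) and 3.79 (3.74 to 3.84). Outside CpG-rich sequence the medians were 54 (51 to 61) and 3.51 (3.37 to 3.60) for distal peaks, and 59 (57 to 64) and 3.37 (3.28 to 3.48) for peaks within 5 kb of a TSS. The intervals of these 2 positions overlapped in score and fold in both kinds of sequence. CpG-rich peaks farther away but inside genes had a higher median score, 109.5 (94 to 131), and fold, 4.18 (3.93 to 4.36), whose intervals lay above those of CpG-rich peaks within 5 kb of a TSS and overlapped those of the distal ones. Width kept a gap outside CpG-rich sequence, at 410 bp (392 to 430) for distal peaks and 458 bp (443 to 480) within 5 kb of a TSS. Peaks farther away but inside genes had 411 bp (387 to 447) there, close to the distal ones. In CpG-rich sequence the widths were 519 bp (494 to 562) for distal peaks and 549 bp (541 to 559) within 5 kb of a TSS. Those farther away but inside genes had 530 bp (500 to 552).

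**Figure D2:**
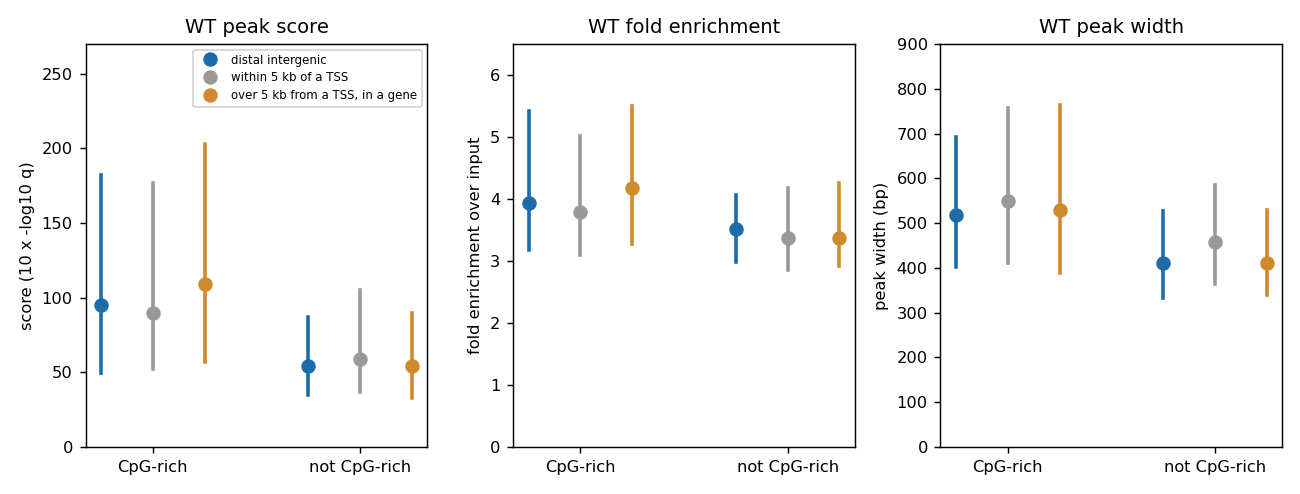
Medians (points) and quartiles (lines) of WT peak score, fold enrichment over input and width in bp, by position and by whether the peak lies in CpG-rich sequence. In each panel the points differ more between CpG-rich and other sequence than between positions: the distal intergenic medians of score are 95 and 54.

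Among the strongest distal intergenic peaks, chr16:17815326-17816385 had a score of 1100 and a fold of 10.5 and lay 18480 bp from the TSS of Scarf2, a scavenger receptor family gene. Next, chr2:61653064-61654426 had a score of 840 and a fold of 13.2 and lay 9415 bp from a TSS of Tbr1, a T-box factor of cortical neurons. Then chr11:90279133-90280062 had a score of 793 and lay upstream of Hlf, a bZIP transcription factor gene. The peak chr5:142843240-142843928 had a score of 723 and lay 33867 bp upstream of the forkhead gene Foxk1. The remaining members of the 10 strongest had scores of 546 to 630. They lay nearest to Gm14487 (chr2:30400621-30401207), Tmed11 (chr5:109203715-109204353), Gm6721 (chr10:85291793-85292589), Edn2 (chr4:119821009-119821996) and E530001K10Rik (chr2:94113194-94114101). Edn2 encodes an endothelin. Of the 9 named, the peak near Edn2 alone was outside CpG-rich sequence, and the peak near Gm6721 alone had more than 1 copy of its summit sequence in the genome (3 copies). After those near Edn2 and Zic4, the strongest member outside CpG-rich sequence was chr6:48551369-48552570, with a score of 440 and a CpG ratio of 0.599, just under the limit.

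Wider distal peaks tended to have higher scores, with a Spearman rho of 0.464 (Pearson 0.508) over the 609 peaks of 1 list, both values resting on the same reads. The 3 widest members were nevertheless not among the 10 strongest. They were chr18:36078641-36080793 (2153 bp, score 81), chr1:88399706-88401277 (1572 bp, score 245, 22820 bp upstream of Ptma) and chr13:29050187-29051739 (1553 bp, score 92). The last lay 5381 bp upstream of Sox4, an SRY-box transcription factor gene. The shortest distal peak was 294 bp.

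The distal intergenic peaks were nearer to genes than intergenic sequence in general. Their median distance to the nearest TSS was 23051 bp (quartiles 11.7 and 52.6 kb), and to the nearest protein-coding TSS 35261 bp. Between 5 and 10 kb from a TSS lay 123 of them (20.2%), against 9.41% of the intergenic grid positions. Between 10 and 50 kb lay 321 (52.7% against 37.1%), between 50 and 100 kb 106 (17.4% against 19.2%) and beyond 100 kb 59 (9.69% against 34.2%). The grid is not matched for GC content or mappability. The nearest protein-coding TSS had the peak on its upstream side in 346 cases (56.8%, 95% interval 52.8 to 60.8%), against 57.3% of the intergenic grid positions. The nearest TSS of any kind belonged to a protein-coding gene for 400 peaks, to a pseudogene for 46, to a processed transcript gene for 37 and to a lincRNA for 32. The type is that of the gene, so the start may be that of a non-coding transcript of a protein-coding gene. For another 94 it belonged to a short or structural RNA, such as miRNA (30), snRNA (30) and snoRNA (19).

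The limit of 5 kb cut through a continuous range. Just inside it were chr2:18610419-18610860 at 5020 bp (score 174), chr19:6549397-6550467 at 5033 bp (score 93) and chr11:69231973-69232464 at 5041 bp from Kdm6b (score 67). Just outside were WT peaks at 4995 bp (chr4:115329734-115330244, score 122), 4944 bp (chr16:57076218-57076589, score 53) and 4917 bp from Cmas (chr6:142700082-142700497, score 90).

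The 59 peaks beyond 100 kb from any GENCODE M1 TSS had a median score of 54 and a median fold of 3.58. Over all distal peaks these were 68 and 3.66, and the 59 held strong and weak ones. The most distant, chr16:6348435-6349217, lay 460489 bp upstream of Rbfox1, a neuronal splicing factor gene, and had a score of 310 and a fold of 9.43 in CpG-rich sequence. The next, chr12:75905137-75905469, lay 373016 bp from Kcnh5, a potassium channel gene, with a score of 16 and a fold of 1.77. After that came chr7:78850242-78850817, 354158 bp from Gm10295 in GENCODE M1, with a score of 212 and a fold of 5.23. In RefSeq, an annotation compared below, this peak lay 434 bp from a start of Gm44689, so it was remote in M1 only. The CpG-rich share was 47.2% at 5 to 10 kb, 47.4% at 10 to 50 kb, 36.8% at 50 to 100 kb and 25.4% (15 of 59, 95% interval 15.0 to 38.4%) beyond 100 kb.

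A part of the distal intergenic peaks lay at gene starts that GENCODE M1 does not hold. RefSeq promoter sequences, from 250 bp before to 50 bp after each gene's start on GRCm38.p6, were placed in mm9 by exact match near WT peaks. The table held none for chromosome 18, so 579 members could be asked. Of these, 141 (24.4%, 95% interval 20.9 to 28.1%) had a RefSeq TSS within 5 kb of the midpoint, and 94 had it within 1 kb. Within 5 kb, all WT peaks gave 70.2% (4705 of 6703) and the others inside genes 8.77% (35 of 399), with chromosome 18 left out. In the 94, the RefSeq gene was a lncRNA in 49 cases and protein-coding in 45, and in 30 the gene's symbol was in GENCODE M1 as well, so that RefSeq gave it a start elsewhere. Such were chr14:79132452-79133267 (score 350), 323 bp from a start of the diacylglycerol kinase gene Dgkh whose nearest M1 start was 7963 bp away, and chr8:128093840-128094431 (score 298), 372 bp from a start of Sipa1l2 that M1 placed 77525 bp away. Among the 10 strongest members, chr5:109203715-109204353 lay 12 bp from the start of Rnf212, a gene of meiotic crossover formation, and chr2:30400621-30401207 lay 903 bp from that of the lncRNA Gm31585. Dgkh and Sipa1l2 were picked after their values were seen.

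Members with a RefSeq TSS within 5 kb had more CpG and higher scores than those without. In the 141 members with one, 88 were CpG-rich (62.4%, 95% interval 53.9 to 70.4%), with a median score of 87 and a fold of 3.83. In the 438 without one, 166 were CpG-rich (37.9%, 95% interval 33.3 to 42.6%), with a median score of 64 and a fold of 3.57. The 166 CpG-rich members with no M1 start and no matched RefSeq start within 5 kb included those near Scarf2, Tbr1 and Hlf. An exact match misses starts whose sequence changed between assemblies, and of peaks within 5 kb of an M1 TSS 79.1% had a match, so 141 may be an undercount.

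**Figure D3:**
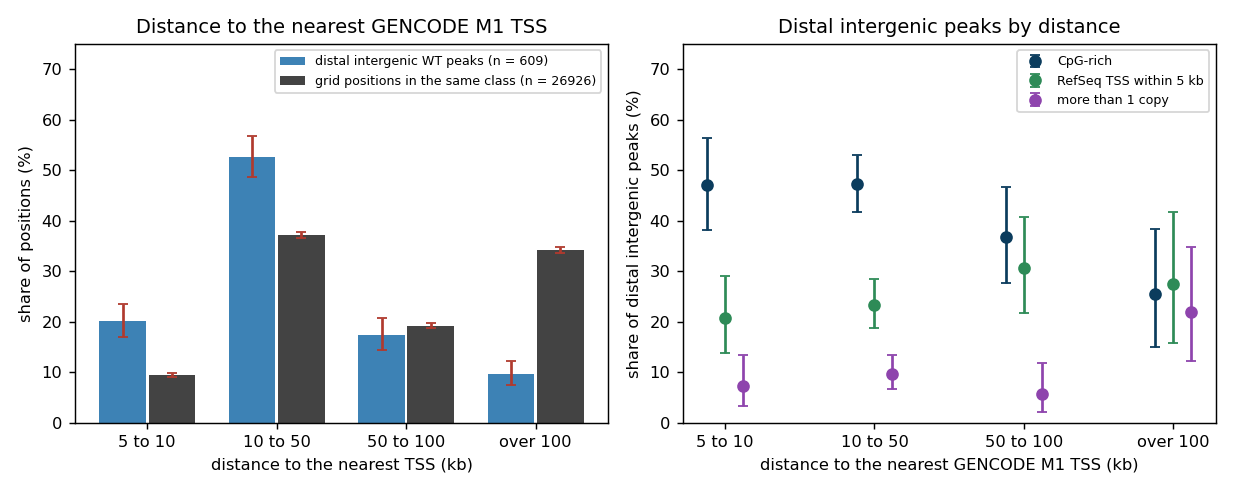
Left, share (%) of the 609 distal intergenic peaks and of 26926 grid positions of the same class in bins of distance to the nearest GENCODE M1 TSS (kb). Right, share (%) of the distal intergenic peaks in each bin that were CpG-rich, had a RefSeq TSS within 5 kb (chromosome 18 left out) or had more than 1 copy of the summit sequence. Bars and points carry exact 95% intervals. The peaks fall mostly at 10 to 50 kb (52.7%), and the CpG-rich share is 25.4% beyond 100 kb.

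Motif matches differed between CpG-rich and other members for some motifs and not for the E-box. Searched on both strands in 300 bp at the summit, the E-box CACGTG, bound by basic helix-loop-helix factors such as MAX and its partners, was found in 148 of the 609 windows (24.3%, 95% interval 20.9 to 27.9%). It was in 24.6% of CpG-rich members and 24.1% of the others, in 20.0% of peaks within 5 kb of a TSS and in 2.71% of intergenic grid windows. Peaks farther away but inside genes gave 24.2%, so the E-box share was not particular to distal peaks. Within 5 kb of a TSS it was 19.1% in CpG-rich sequence and 26.3% outside it. The E2F core TCCCGC, bound by E2F factors and E2F6, was in 26.6% of the distal windows, with 40.2% (34.2 to 46.3%) in CpG-rich members and 16.2% (12.5 to 20.6%) in the others, against 43.8% within 5 kb of a TSS and 1.70% of the grid. The GC box GGGGCGG, bound by SP and KLF factors, was in 25.8% of CpG-rich members and 10.1% of the others, against 28.8% and 0.817%. Peaks farther away but inside genes gave 27.1% for the E2F core and 11.4% for the GC box, which was in 16.9% of all distal windows. E2F cores and GC boxes can share bases. All 3 motifs hold a CpG, and the grid windows held a median of 0.667 CpG per 100 bp against 4.33 in the distal windows, so that the part of composition in these shares was not tested.

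Other motifs were in few distal windows. The NRF1 motif GCATGCGC was in 4.76% (grid 0.301%), the T-box motif GGTGTGA in 5.58% (grid 3.70%) and the YY1 core AAGATGGC in 2.13% (grid 2.76%). The CTCF core consensus was in 10 windows (1.64%), against 0.458% within 5 kb of a TSS and 0.115% of the grid. The OCT octamer ATGCAAAT, of POU factors, was in 10 windows too (1.64%), against 0.373% within 5 kb of a TSS and 2.99% of the grid. A match is a string of letters and not a bound site.

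**Figure D4:**
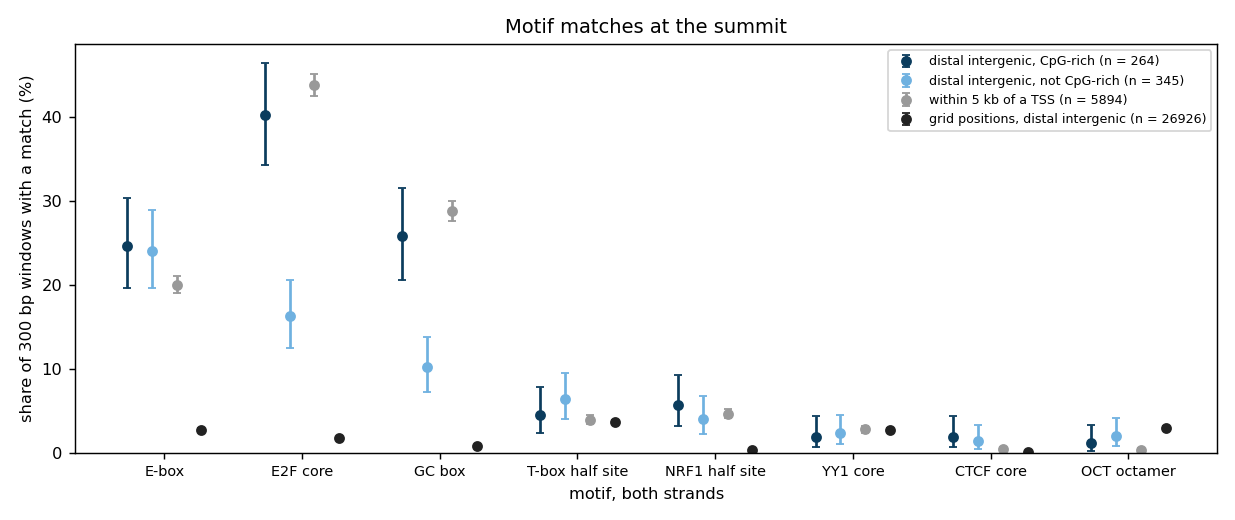
Share (%) of 300 bp windows at the summit that hold each motif on either strand, with exact 95% intervals, for CpG-rich and other distal intergenic peaks, peaks within 5 kb of a TSS and intergenic grid positions. The E-box points of the CpG-rich and other distal peaks lie together (24.6% and 24.1%), and the E2F core points lie apart (40.2% and 16.2%).

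Most distal intergenic peaks, like most WT peaks, had no other WT peak within 10 kb. Another WT peak lay within 10 kb of 83 of them (13.6%, 95% interval 11.0 to 16.6%), where all WT peaks gave 17.2%, and within 50 kb of 277 (45.5%, against 46.0% of all WT peaks). The distance rule itself lowers the 10 kb share, because most WT peaks lie within 5 kb of a TSS and the members do not. This share was 31.7% for members 5 to 10 kb from a TSS and 6.85% at 10 to 50 kb. It was 15.1% at 50 to 100 kb and 10.2% beyond 100 kb. Counting members alone, 22 runs joined by gaps of at most 10 kb held 45 members. The only run of 3 was chr11:120158917-120172685, 35916 bp from the actin gene Actg1, with scores of 76 to 326. The strongest runs of 2 were chr5:29794233-29799238, 5977 bp from the motor neuron homeobox gene Mnx1, with scores of 77 and 182, and chr11:118917768-118920258, 15822 bp from the Polycomb gene Cbx8, with scores of 64 and 176. By nearest protein-coding TSS the 609 peaks fell to 548 genes, 52 of them with 2 or more peaks and 8 with 3 or more.

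Across chromosomes the distal intergenic peaks made up 5.09% of WT peaks on chromosome 19 (11 of 216) to 14.1% on chromosome 18 (30 of 213). Per Mb of sequence, autosomes held 0.115 (chromosome 3) to 0.359 (chromosome 17), and X held 0.0494. The X chromosome had 8 such peaks among its 98 WT peaks (8.16%, 95% interval 3.59 to 15.5%), a share within the autosomal range. The strongest on X was chrX:98892885-98894042, with a score of 364 and a fold of 10.4, CpG-rich and 6274 bp from the pseudogene Gm14845. The others named by score were chrX:11241459-11241794 (98), chrX:139917335-139917863 (59, near Pak3), chrX:45667957-45668250 (54) and chrX:30386967-30387285 (53). The last had 21 copies of its summit sequence.

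A fixed list of germ line genes gave no distal intergenic peak, and the background was low too. Of 51 annotated genes on a list of 52, none was the nearest protein-coding gene of a distal peak (0 of 609, 95% upper bound 0.604%), whereas 42 of all 6916 WT peaks (0.607%) were nearest to one. Most WT peaks lie at promoters, and of the intergenic grid positions 28 of 26926 (0.104%) were nearest to a listed gene, which is below the upper bound for the distal peaks. Rnf212, named above for its RefSeq start, was not on the list.

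Pluripotency and early lineage genes were nearest to 5 distal peaks (0.821%, 95% interval 0.267 to 1.91%). Of all WT peaks 0.347% were nearest to one, and of intergenic grid positions 0.316%, both inside that interval. The strongest, chr1:182854599-182855681, lay 10013 bp upstream of Lefty1, which encodes an inhibitor of Nodal signalling. It had a score of 223 and a fold of 5.86 in CpG-poor sequence, with a CpG ratio of 0.151. Klf4, a pluripotency transcription factor gene, was nearest to 3 of the 5. These were chr4:55493093-55493453 (score 110), chr4:55664022-55664359 (score 65) and chr4:55527699-55528026 (score 48), at 51369, 118843 and 16780 bp. The fifth, chr12:3792126-3792419 (score 44), lay 14255 bp upstream of Dnmt3a, a DNA methyltransferase gene.

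Developmental transcription factor genes, gathered by family name, were nearest to 17 distal peaks (2.79%, 95% interval 1.63 to 4.43%), against 2.14% of all WT peaks and 1.67% of intergenic grid positions. After Foxk1 (723), the highest scores were those of chr9:91459146-91459715 (460, Zic4, a zinc finger gene), chr11:18926471-18927577 (401, Meis1, a homeobox gene), chr11:85689810-85690283 (329, Tbx4, a T-box gene of the hind limb) and chr11:21892937-21894074 (205, Otx1, a homeobox gene of the anterior brain). The peak at Tbx4 had a CpG ratio of 0.398 and those at Meis1 and Otx1 were CpG-rich. A nearest gene is a position and says nothing of which gene a site acts on.

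Few distal intergenic peaks were overlapped by a called KO peak, as was so for WT peaks in general. A KO peak overlapped 9 of 609 (1.48%, 95% interval 0.678 to 2.79%), where all WT peaks gave 0.622%, peaks within 5 kb of a TSS 0.458% (27 of 5894) and the others inside genes 1.69% (7 of 413). Of the 9, 8 lay outside CpG-rich sequence. Outside CpG-rich sequence the share was 8 of 345 (2.32%, 95% interval 1.01 to 4.52%) for distal peaks, 11 of 729 (1.51%, 0.756 to 2.68%) for peaks within 5 kb of a TSS and 2.49% (0.813 to 5.71%) for the others inside genes. The KO list held 44 peaks on these chromosomes, which keeps the overlap low for any large class of WT peaks. Of these 44, 9 met the same distance rule. Replicates were pooled for the WT calls and KO had a single sample, so the absence of a KO peak was not matched for depth.

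The 9 overlapped peaks had low fold enrichment for their scores. Their median WT fold was 1.88, against 3.66 over the other 600, whereas their median score was 66 against 68. The highest score was that of chr15:74916932-74917473, with 175 at a fold of 1.83. It was nearest to Ly6c2 and had 5 copies of its summit sequence. The next, chr17:56633459-56633990, 17818 bp from the phosphatase gene Ptprs, differed from the rest with a score of 133, a fold of 5.09 and 1 copy. The others had folds of 1.47 to 2.88. They were chr18:68851517-68852049 (score 88, 16 copies), chr3:5860420-5860974 (79, 1 copy, the CpG-rich one), chr9:35112655-35113250 (66, 155 copies), chrX:139917335-139917863 (59, 1 copy), chr6:3151246-3151769 (49, 3 copies), chr10:21862233-21862822 (49, 2 copies) and chr6:49186244-49186766 (46, 3 copies). Each KO peak lay at least 97.2% inside its WT peak. The KO fold was above the WT fold on chromosomes 18 (3.39 against 2.88), 3 (2.58 against 1.78) and 10 (1.83 against 1.79). It was also above at both peaks on chromosome 6 (2.33 against 1.88 and 2.56 against 2.04). It was below on chromosomes 15 (1.53 against 1.83), 17 (3.26 against 5.09) and X (1.65 against 1.88), and on chromosome 9 both were 1.47. The lists were not matched for depth.

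Copies of the summit sequence moved with the KO overlap. Counting matches to the 200 bp at the summit with at least 90% identity over at least 80% of the query, 59 distal peaks had more than 1 copy (9.69%, 95% interval 7.46 to 12.3%), where all WT peaks gave 3.67%. The share was 66.7% (6 of 9, 95% interval 29.9 to 92.5%) in those overlapped by a KO peak and 8.83% (53 of 600, 6.69 to 11.4%) in the rest. Without the 59, a KO peak overlapped 3 of 550 (0.545%). The part of repeated sequence in the KO overlap was not tested. Most multi-copy members had no KO peak, and their CpG-rich share (25 of 59, 42.4%) was close to that of the single-copy ones (239 of 550, 43.5%).

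**Figure D5:**
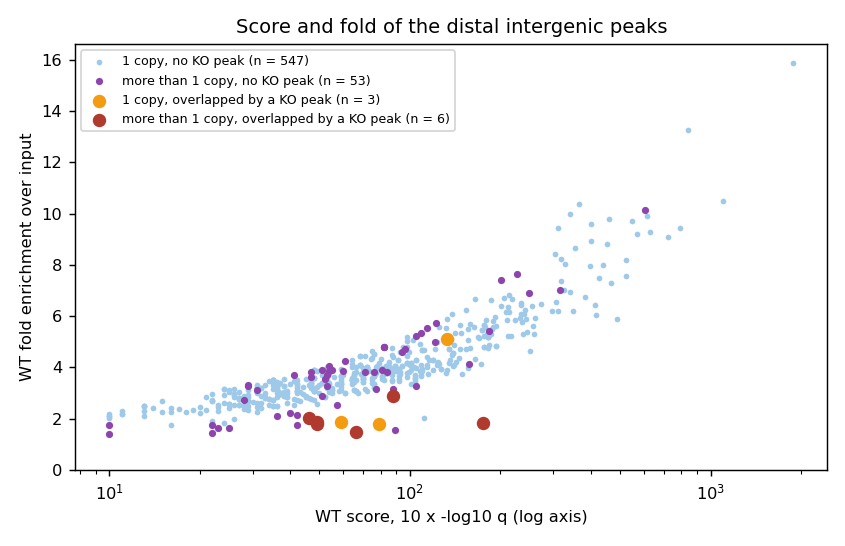
WT fold enrichment over input against WT score (log axis) for each of the 609 distal intergenic peaks, coloured by copies of the summit sequence and by overlap with a KO peak. Fold and score come from the same reads. Of the 9 overlapped peaks, 8 lie below a fold of 3, and the one near Ptprs lies at 5.09.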

How the data were processed

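The authors aligned 50 bp single-end reads to mm9 with Bowtie (1.1.2 in the submitters' notes, 1.2.2 in the methods), retained reads that mapped to a single place and called peaks by MACS2 2.1.0.20140616 against input, at a q-value under 0.1 and a fold above 1. Sequence with identical copies can therefore be lost or rest on few mappable bases. WT peaks came from pooled replicates and KO peaks from 1 sample, although the series description speaks of technical duplicates. The authors deposited for each peak a score, a fold enrichment over input, the −log10 of its q-value and its summit. The score equalled 10 times that −log10 with decimals dropped in every row.

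Peaks were placed against GENCODE M1 on NCBIM37 (mm9), counted from 1, and 17 WT peaks on contigs were left out. Overlap meant at least 1 bp. Copies were counted with BLAST 2.17.0. Python 3.11.15, pandas 2.3.3, SciPy 1.17.1 and pysam 0.24.0 were used, and the placing was checked on simulated positions. Named regions were the 10 of highest score (1 of them is not reported here), the 5 highest on X, the 3 widest, the 3 farthest, the 3 strongest outside CpG-rich sequence, the 3 runs with most members (ties by score), those at the limit, those with a KO peak and the 5 highest per gene list. The members, gene lists and motifs were chosen with earlier results of these data known, and the RefSeq comparison was added after seeing them. Tried alternatives were the distance limit, the position used, the annotation, a score minimum, merging, the overlap rule and the window.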

Additional observations from a re-analysis of the deposited data

How the results depend on the processing

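Of 58 values recomputed for 10 results, 46 stayed within 1.5 times (counts) or within the 95% interval (shares and medians) of the reported value, and 12 moved. Limits of 2 and 10 kb, with 708 and 486 peaks, moved none of the 6 results recomputed under them (number, CpG-rich share, width, score, fold and KO overlap). With protein-coding genes and transcripts only, 841 peaks met the rule, the CpG-rich share was 51.0% and the median width 476 bp. Restricted to scores at or above the median of the WT list, which raises scores by construction, 246 peaks were left, with a CpG-rich share of 58.9%, a median width of 562 bp, a median score of 137.5 and a median fold of 4.81. Leaving out chromosome 18 and members with a RefSeq TSS within 5 kb, an alternative chosen after seeing the data, gave a CpG-rich share of 37.9%, and leaving out chromosome 18 alone gave 43.9%. Leaving out those with more than 1 copy, chosen likewise, gave a KO overlap of 0.545%. The median distance was 35261 bp to protein-coding TSSs. Another WT peak lay within 5 kb of 6.24% and within 50 kb of 45.5%, as a narrower or wider reach must give. No paired analysis was possible because no test was made between the single lists of WT and KO. No replicate could be left out for the same reason. The lists hold no read counts, so what depth limits was not measured, and a site without a peak was not shown to be unbound.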

Other observations

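Across the 609 distal intergenic peaks, CpG per 100 bp and score had a Spearman rho of 0.338 (Pearson 0.231). Over the 5894 peaks within 5 kb of a TSS rho was 0.032 and over the 413 others inside genes 0.435. CpG ratio and fold gave 0.191, 0.048 and 0.324 in the same order. Distance to the nearest TSS and fold gave 0.009 over the distal peaks. These are correlations across peaks of 1 list, which share libraries and base composition and are not replicates, and they are given as a description.

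The summit lay away from the midpoint by a median of 9.94% of the peak's width over the distal peaks, and by 1.34% over the 9 that a KO peak overlapped. Of the 59 members beyond 100 kb from a TSS, 13 had more than 1 copy of the summit sequence (22.0%, 95% interval 12.3 to 34.7%), and 14 of the 51 that could be asked had a RefSeq TSS within 5 kb (27.5%).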
